A study of Homo sapiens with 5 samples.

Results

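MP2-mock cells, labelled as MIAPaCa2 cells maintained under drug selection, were compared with all 4 MIAPaCa2 populations that carried an integrin construct. All 5 arrays of the series entered, 1 for each population. The label of MP2-mock names no vector. MIAPaCa2 is an established line of poorly differentiated pancreatic ductal adenocarcinoma (PDAC). MP2-α2/TC cells expressed full-length α2 from a cytomegalovirus promoter on ordinary culture plastic. MP2-α2/CI cells arose from the same transfection and panning and were passaged on collagenI. MP2-α2Δ cells expressed α2 without its cytoplasmic domain and were also grown on collagenI. The α2 and α2Δ cells were panned on 25 μg/mL collagenI, and the methods do not state the coating concentration of their later culture. MP2-α9α2 cells expressed a chimera of the α9 ectodomain and transmembrane domain with the α2 cytoplasmic domain, on 10 μg/mL tenascin FNIII. All were stable populations kept under a selection drug, which was zeocin for α2 and α2Δ and G418 for α9α2. The drug and the plate coating of MP2-mock cells are not stated in the labels or the methods. The construct populations were panned on a ligand of their integrin, and the methods describe no panning of MP2-mock cells, so the construct, the panning and the history of the 1 mock population cannot be told apart.

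A probe set, the group of short probes that reads a transcript, was included where its value in MP2-mock cells lay at least 1 log2 unit (2-fold) above, or below, every one of the construct arrays. Of 32745 probe sets above background on at least 1 array, 26 met this rule. MP2-mock lay above all 4 construct arrays at 20 probe sets, 0.0611% of those measured, and below all 4 at 6 probe sets, 0.0183%. The 20 probe sets represented 12 genes (BST2, CTSC, HKDC1, PDZK1IP1, PCDH9, RELB, TNFAIP3, PEG10, IL1A, MORC4, FOXQ1 and LARP1), with 1 further probe set that is assigned to several genes and is not named. The 6 lower probe sets represented DDR2, PTPN3, TNFSF10, NEDD4L, IRAK1BP1 and CXADR. These values chose the genes and are given as a description. With 1 mock array there is no replicate check and no test, and an exact permutation test of 1 array against 4 could not give a p below 0.2. The construct populations differ from each other in construct, substrate and drug, so their range is not a replicate spread.

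Values are log2 signal. The array minimum was 2.24 for MP2-mock and both α2 populations but 2.21 for MP2-α2Δ and MP2-α9α2, and the medians of probe sets above background on all arrays were 6.88 to 6.89 in the first set against 7.72 and 7.69 in the second. The sets were therefore taken to have been normalized apart, and each call was repeated after quantile normalization over the 5 arrays. All 20 probe sets higher in MP2-mock met the rule again. Of the 6 lower probe sets 4 did, and those of DDR2 and TNFSF10 did not. Of a list of 8 pancreatic ductal markers 6 were measured, and EPCAM and CFTR were not among them. The ductal keratins KRT8 (14.18), KRT18 (15.18) and KRT19 (11.82) and the ductal transcription factor SOX9 (11.10) were high in MP2-mock. MUC1 read 6.38 there, and KRT7 was at background (2.25).

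Several of these genes belong to familiar signalling systems. BST2 (tetherin) is a membrane protein that tethers budding virus particles and is induced by interferon through response elements bound by STAT and IRF factors. RELB is a subunit of the NF-κB family of transcription factors, and TNFAIP3 (A20) is a ubiquitin-editing enzyme that is switched on by NF-κB and then restrains it. IL1A encodes interleukin-1α, a cytokine that activates the same pathway. CTSC is cathepsin C, a lysosomal cysteine protease that removes dipeptides and activates serine proteases of immune cells. DDR2 is a receptor tyrosine kinase for fibrillar collagens, and TNFSF10 (TRAIL) is a ligand that can trigger apoptosis.

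Promoter sequences, the 250 bases before the transcription start in RefSeq (GRCh38.p14), were found for 10 of the 12 genes higher in MP2-mock and for 5 of the 6 lower genes. No sequence was available for RELB, PEG10 and CXADR, so their promoters were not searched. Those of BST2 and TNFAIP3 are shown because they hold the interferon or NF-κB motifs searched for. Capitals mark matches on either strand to the core of the interferon-stimulated response element, GAAANNGAA, or to the core of a κB site, GGNNTTTCC.
BST2, chr19:17405631-17405880, minus strand: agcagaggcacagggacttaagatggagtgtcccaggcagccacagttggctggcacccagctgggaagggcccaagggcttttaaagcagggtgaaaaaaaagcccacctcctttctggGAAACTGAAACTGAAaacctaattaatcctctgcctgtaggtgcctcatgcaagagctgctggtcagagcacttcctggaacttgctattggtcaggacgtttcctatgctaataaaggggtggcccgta
TNFAIP3, chr6:137867009-137867258, plus strand: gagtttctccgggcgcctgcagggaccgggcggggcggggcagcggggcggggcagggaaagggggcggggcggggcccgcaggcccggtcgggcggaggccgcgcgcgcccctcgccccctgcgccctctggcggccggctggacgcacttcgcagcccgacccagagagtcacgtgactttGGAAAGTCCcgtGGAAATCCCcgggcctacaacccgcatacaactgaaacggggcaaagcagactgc
The BST2 promoter had 2 overlapping matches to the interferon element, which began 130 and 124 bases before the start. The TNFAIP3 promoter had 2 matches to the κB core, at 67 and 55 bases before the start. In the other searched promoters of higher genes, which do not include RELB, neither motif was found. AP-1 sites (TGANTCA) were found only at IL1A among them. Among the lower genes TNFSF10 held 2 matches to the interferon element, at 186 and 54 bases, and 1 of the 5 NEDD4L promoters held an AP-1 site. Of 35116 RefSeq promoter windows of this length, 6.88% held the interferon element, 5.48% the κB core and 6.57% the AP-1 site. A match describes letters in this window and not a bound site.

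BST2 had the widest separation. Its probe set measured 8.67 in MP2-mock, 2.77 in MP2-α2/TC, 3.00 in MP2-α2/CI, 2.22 in MP2-α2Δ and 2.73 in MP2-α9α2. The construct arrays lay within 0.78 log2 of each other near background, and MP2-mock was 5.67 log2, or 50.9-fold, above the highest of them. After quantile normalization this gap, the difference between MP2-mock and the nearest construct array, was 5.84. BST2 was read by 1 probe set, so no other probe set checks the value. In bulk RNA, fewer cells that express a gene and less RNA per cell cannot be told apart.

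CTSC was the gene with the most probe sets that met the rule, all 4 of its own. The probe set 225647_s_at measured 12.62 in MP2-mock, 8.37 in MP2-α2/TC, 8.88 in MP2-α2/CI, 8.60 in MP2-α2Δ and 8.88 in MP2-α9α2, a gap of 3.73 log2 or 13.3-fold. The construct populations thus kept a clear CTSC signal and lay within 0.52 of each other. For 225646_at the values were 12.09, 7.85, 8.42, 7.97 and 7.56 in the same order, with a gap of 3.67. The weakest probe set, 231234_at, read 5.75 in MP2-mock and 2.25 to 2.37 elsewhere, at or near background. The probe set 201487_at read 11.17, 7.12, 7.82, 7.63 and 8.65, with the smallest gap of the 4 (2.52, and 3.22 after quantile normalization).

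HKDC1, a member of the hexokinase family, was read by 4 probe sets, of which 3 met the rule. The probe set 227614_at gave 10.54 in MP2-mock, 6.78 in MP2-α2/TC, 7.43 in MP2-α2/CI, 7.87 in MP2-α2Δ and 8.33 in MP2-α9α2. MP2-mock was highest by 2.21 log2. The other 2 probe sets that met the rule had gaps of 2.47 (220585_at) and 1.49 (237323_at). The remaining probe set, 237324_s_at, went the other way in part, at 4.71 in MP2-mock, 3.04 in both α2 populations, 5.22 in MP2-α2Δ and 5.17 in MP2-α9α2.

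PDZK1IP1 (MAP17), a small membrane protein of epithelial cells that binds the PDZ protein PDZK1, met the rule with both of its probe sets. The probe set 1553589_a_at measured 10.41 in MP2-mock, 7.29 in MP2-α2/TC, 7.74 in MP2-α2/CI, 8.26 in MP2-α2Δ and 7.35 in MP2-α9α2, a gap of 2.15 log2. For 219630_at the values were 10.03, 7.20, 7.44, 8.90 and 7.23, and the gap was 1.14, or 1.85 after quantile normalization. As deposited, MP2-α2Δ came nearest to MP2-mock in both probe sets. After quantile normalization MP2-α2/CI was nearest for 1553589_a_at (8.05, against 7.77 in MP2-α2Δ).

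**Figure D1:**
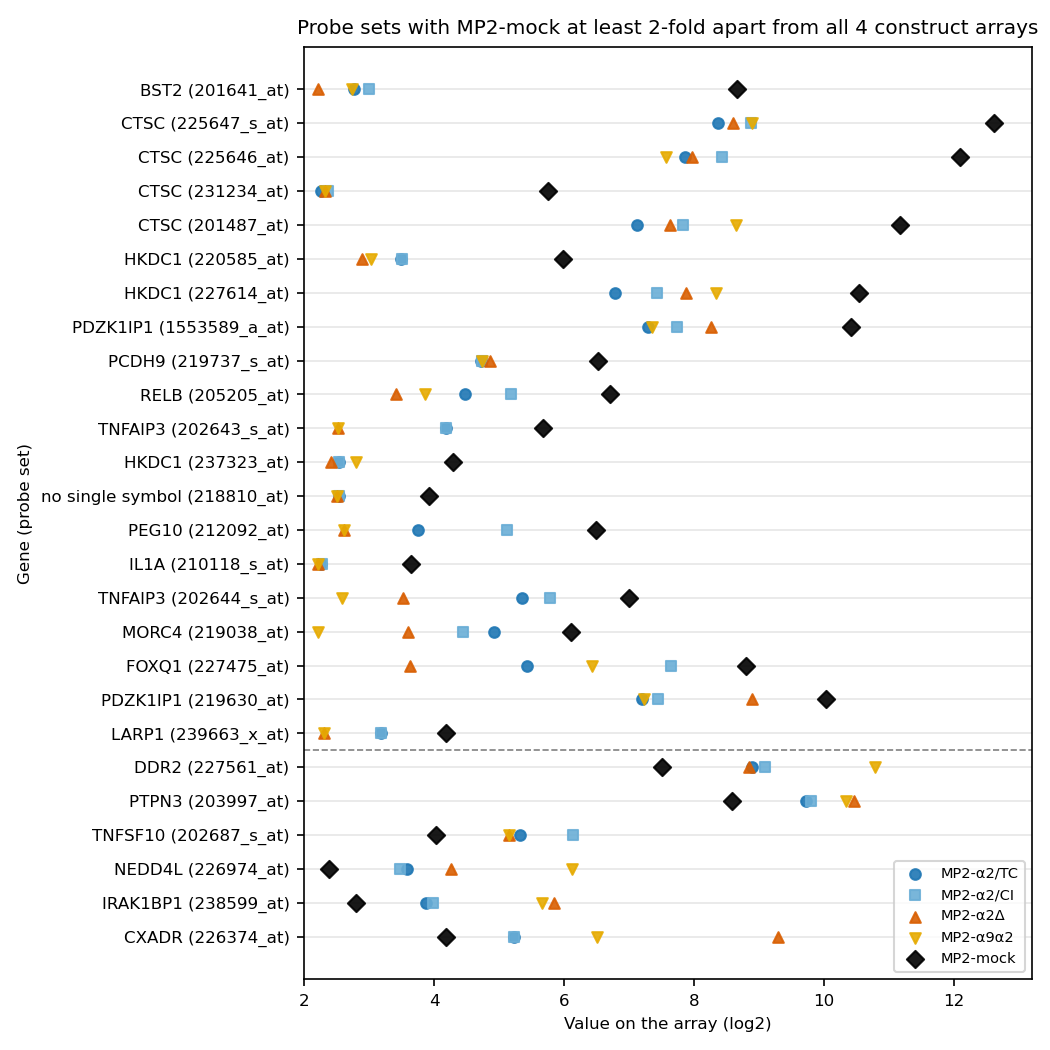
Log2 value on each of the 5 arrays (horizontal axis) for the 26 probe sets where MP2-mock lay at least 2-fold above (over the dashed line, 20) or below (under it, 6) all 4 construct arrays, each point 1 array and each group ordered by the gap. BST2 and the 4 CTSC probe sets show the widest gaps, from 2.52 to 5.67, while the 6 lower probe sets have gaps of only 1.05 to 1.34.

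Of the NF-κB genes, RELB measured 6.71 in MP2-mock, 4.47 in MP2-α2/TC, 5.18 in MP2-α2/CI, 3.41 in MP2-α2Δ and 3.86 in MP2-α9α2. MP2-mock was 1.53 log2, or 2.89-fold, above the nearest population, while the construct populations spread over 1.77. TNFAIP3, whose promoter is printed above, met the rule with both probe sets. The brighter, 202644_s_at, measured 6.99 in MP2-mock, 5.35 in MP2-α2/TC, 5.78 in MP2-α2/CI, 3.53 in MP2-α2Δ and 2.59 in MP2-α9α2, and the other, 202643_s_at, read 5.68, 4.18, 4.18, 2.52 and 2.52. Both genes were lowest in MP2-α2Δ and MP2-α9α2, and quantile normalization left their gaps at 1.53 for RELB and at 1.57 and 1.22 for TNFAIP3. IL1A was detected weakly in MP2-mock by 210118_s_at (3.64) and was at or next to background in all other populations (2.21 to 2.27), so that its difference of 1.37, at least 2.59-fold, is a bound. Its other probe set was at 2.36 in MP2-mock and both α2 populations and at 2.22 in the other two.

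A list of 22 NF-κB subunits, feedback targets and cytokines, of which 17 were measured, was read with the probe set of highest mean for each gene. RELB and TNFAIP3 were the 2 genes at least 2-fold higher in MP2-mock than in all construct populations, and no gene was 2-fold lower. Over all 13540 genes read in this way, 10 were 2-fold higher (0.0739%). Without a minimum fold, MP2-mock lay above all 4 populations in 9 of the 17 genes (52.9%), against 7.48% of all genes, and in 10 of 17 (58.8%) against 20.7% after quantile normalization. The list was written with earlier results of these data known, so that this share is a description.

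The 9 genes were NFKB1, NFKB2, RELB, NFKBIA, NFKBIZ, TNFAIP2, TNFAIP3, CXCL1 and LIF. Of these, RELB, TNFAIP3 and NFKBIZ were also 2-fold below MP2-mock in MP2-α2/TC. The inhibitor NFKBIA (IκBα) measured 12.61 in MP2-mock, 12.32 in MP2-α2/TC, 12.40 in MP2-α2/CI, 10.92 in MP2-α2Δ and 10.11 in MP2-α9α2. The subunit NFKB2 read 6.47, 6.15, 6.15, 5.63 and 5.63, and NFKB1 was 9.74 in MP2-mock and 9.37 to 9.65 elsewhere. Another measured NFKB2 probe set, 209636_at, did not have MP2-mock highest. It read 4.71 in MP2-mock and both α2 populations and 5.07 in MP2-α2Δ and MP2-α9α2. The chemokine CXCL2 did not separate MP2-mock, at 10.31, from all others. It was lower in MP2-α2/TC (8.15), MP2-α2/CI (8.72) and MP2-α9α2 (8.85) but higher in MP2-α2Δ (11.41), and CXCL3 had the same order of MP2-α2Δ above MP2-mock above the rest (7.97, 5.69 and 4.32 to 4.87). The chemokine CXCL8 was 11.86 in MP2-mock and 11.05 to 11.89 elsewhere. REL, NFKBIE and ICAM1 went the other way in both MP2-α2Δ and MP2-α9α2. NFKBIE read 3.97 in MP2-mock, 5.10 in MP2-α2Δ and 5.03 in MP2-α9α2, and ICAM1 read 2.69, 3.59 and 3.59. REL was 6.88 in MP2-mock, 7.97 in MP2-α2Δ and highest in MP2-α9α2. As deposited, 4 list genes were 2-fold above MP2-mock in MP2-α2Δ and 2 in MP2-α9α2, with 5 and 6 genes 2-fold below. After quantile normalization 1 and 0 were above and 9 and 10 below. RELA, the main partner subunit, was 9.62 in MP2-mock and 9.47 to 9.90 elsewhere. The median difference of the list from MP2-mock was -0.29 in MP2-α2/TC, -0.26 in MP2-α2/CI, -0.36 in MP2-α2Δ and -0.81 in MP2-α9α2, where all genes had medians of 0, 0, 0.36 and 0.31.

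**Figure D2:**
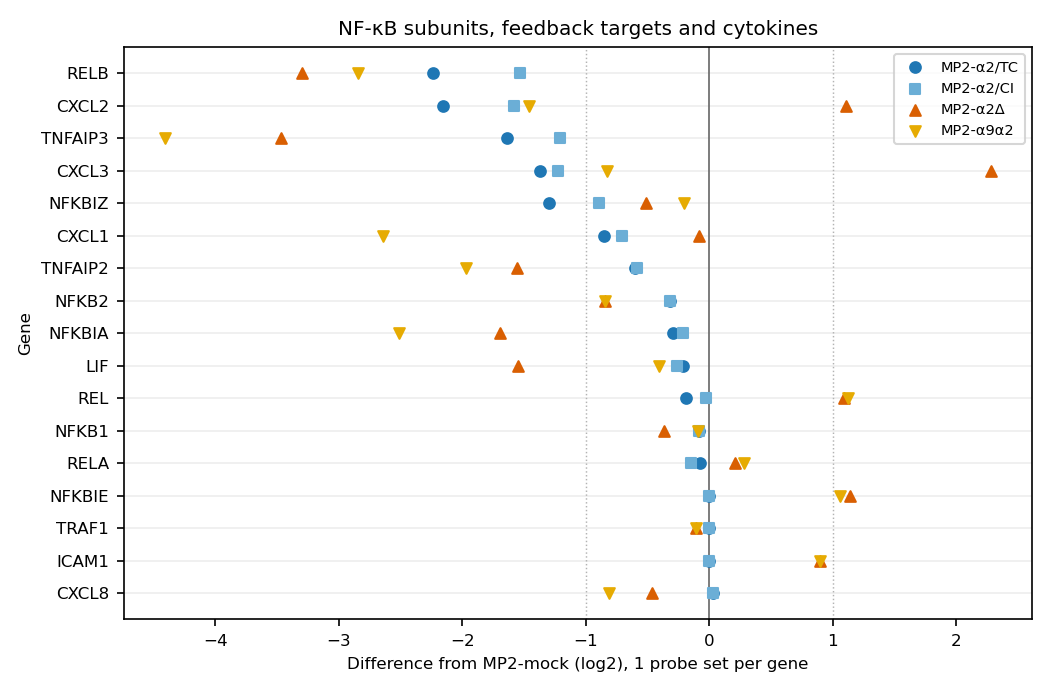
Difference of each construct array from MP2-mock (horizontal axis, log2) for the 17 measured genes of the NF-κB list, 1 probe set per gene, with dotted lines at 2-fold. RELB and TNFAIP3 lie left of the lower dotted line on all 4 arrays, and CXCL2 and CXCL3 lie to the right of 0 in MP2-α2Δ only. REL, NFKBIE and ICAM1 lie to the right of 0 in both MP2-α2Δ and MP2-α9α2.

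BST2 stood apart from the other interferon-stimulated genes. Of 24 measured genes of that list it was the 1 gene at least 2-fold higher in MP2-mock than in all 4 populations. By any amount MP2-mock was highest in 4 of 24 (16.7%), which were BST2, IFI6, IFIT3 and IFITM3, against 7.48% of all genes. After quantile normalization it was highest in 6 of 24 (25.0%), close to the 20.7% of all genes. IFI6 read 7.14 in MP2-mock and 7.01 in both α2 populations, 5.08 in MP2-α2Δ and 4.21 in MP2-α9α2. OASL was also 2-fold lower in both α2 populations (2.58, against 4.18 in MP2-mock) but higher in MP2-α2Δ (6.51) and MP2-α9α2 (6.83). IFIT2, another classical target, was lowest in MP2-mock (7.75) and highest in MP2-α9α2 (11.45), and ISG15 was 8.46 in MP2-mock against 8.48 and 8.46 in the α2 populations. The median difference of the list was -0.08 for MP2-α2/TC, 0 for MP2-α2/CI, and in MP2-α2Δ and MP2-α9α2 its sign turned with the scaling (0.06 and 0.51 as deposited, -0.12 and -0.05 after quantile normalization).

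CTSC was likewise the 1 gene of 14 measured lysosomal genes that was 2-fold higher in MP2-mock than in all others. CTSL and CTSD were also highest in MP2-mock, but by 0.43 and 0.21. Cathepsin B (CTSB) measured 12.14 in MP2-mock, 12.16 in MP2-α2/TC, 12.22 in MP2-α2/CI, 12.81 in MP2-α2Δ and 13.21 in MP2-α9α2, and the lysosomal membrane protein LAMP1 was 12.75 in MP2-mock and 12.72 to 13.97 elsewhere. MP2-mock was highest in 3 of the 14 genes (21.4%) as deposited, against 7.48% of all genes. After quantile normalization it was highest in 5 of 14 (35.7%), against 20.7% of all genes.

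Among HLA class I and antigen processing genes, none of 15 met the fold. MP2-mock was highest by any amount in 4 (26.7%), HLA-B, HLA-C, HLA-G and PSMB8, against 7.48% of all genes. This became 10 of 15 (66.7%) after quantile normalization, against 20.7% of all genes. Probes of HLA class I genes can read one another's transcripts. Of 11 genes of the AKR1C reductases and NRF2 targets, none met the fold and 4 (36.4%) were highest in MP2-mock, as deposited and after quantile normalization. These were AKR1C1, AKR1C2, SRXN1 and HMOX1, heme oxygenase, which measured 9.61 in MP2-mock, 8.97 in MP2-α2/TC, 9.09 in MP2-α2/CI, 7.71 in MP2-α2Δ and 7.38 in MP2-α9α2. In the other 12 lists of pathways, MP2-mock was highest in 0 to 14.3% of genes as deposited and in 0 to 33.3% after quantile normalization, and the 1 gene that met the fold was PCDH9, among cadherins and junction proteins. No gene of any list was 2-fold lower in MP2-mock than in all 4 populations, against 1 of all 13540 genes. By any amount MP2-mock was lowest in 0 to 46.2% of the genes of a pathway list, against 16.1% of all genes. The highest shares were 6 of 13 DNA damage and p53 targets and 4 of 12 integrin subunits (33.3%). After quantile normalization these were 4 of 13 and 5 of 12, against 2309 of all 13540. Markers of fibroblasts, blood cells or endothelium, of which 4 of 7, 3 of 7 and 3 of 5 were measured, did not separate MP2-mock by 2-fold. In MP2-mock the blood markers read 2.25 to 3.36 and the endothelial markers 2.25 to 2.59, close to background, while the collagens COL1A1 (7.19) and COL1A2 (11.97) were expressed.

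**Figure D3:**
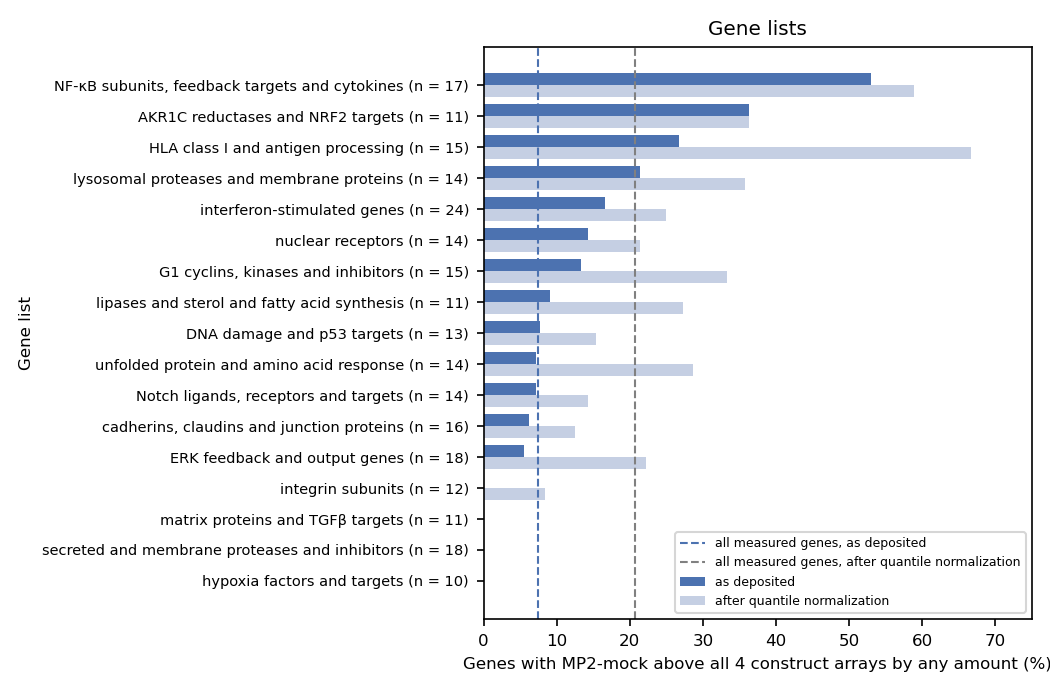
Share of measured genes in each of 17 pathway lists (n beside the name) for which MP2-mock lay above all 4 construct arrays by any amount, in percent, as deposited (dark bars) and after quantile normalization (light bars), with dashed lines for all 13540 measured genes (7.48% and 20.7%). The NF-κB list has the highest share as deposited, 52.9%, and the HLA class I list moves the most with the scaling, from 26.7% to 66.7%.

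The remaining higher genes each rested on 1 probe set. PCDH9, a protocadherin that mediates adhesion between cells, read 6.52 in MP2-mock and 4.73 to 4.86 in the others. Of its other 3 probe sets, 2 were measured, both near background on every array (2.21 to 2.35). PEG10, an imprinted gene derived from a retrotransposon, measured 6.49 in MP2-mock, 3.75 in MP2-α2/TC, 5.12 in MP2-α2/CI and 2.61 in both MP2-α2Δ and MP2-α9α2. Its second probe set, 212094_at, was also highest in MP2-mock (7.21, against 5.07, 5.66, 6.37 and 4.64), by 0.84 as deposited and 1.55 after quantile normalization. SGCE, its imprinted neighbour, measured 6.17 in MP2-mock, 3.82 for MP2-α2/TC, 5.20 for MP2-α2/CI, 6.12 for MP2-α2Δ and 3.49 for MP2-α9α2.

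FOXQ1, a forkhead transcription factor linked to epithelial plasticity, measured 8.80 in MP2-mock, 5.43 in MP2-α2/TC, 7.65 in MP2-α2/CI, 3.63 in MP2-α2Δ and 6.43 in MP2-α9α2. Its gap of 1.15 was small against the 4.02 over which the construct populations themselves spread. MORC4, a member of the MORC family of chromatin ATPases, read 6.11, 4.93, 4.45, 3.60 and 2.21, the last at background. LARP1, which binds mRNAs of the translation machinery, met the rule by 1.01 with a weak probe set (239663_x_at, 4.19 in MP2-mock). Its 3 stronger probe sets, at 10.76 to 12.52 in MP2-mock, were higher in MP2-mock than in both α2 populations but not by 2-fold. The brightest, 212137_at, measured 12.52 in MP2-mock, 12.50 in MP2-α2/TC, 12.45 in MP2-α2/CI, 13.44 in MP2-α2Δ and 13.91 in MP2-α9α2.

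The lower genes had narrower gaps, with a median of 1.10 against 1.52 for the higher ones. DDR2 was read by 4 probe sets. The probe set 227561_at measured 7.51 in MP2-mock, 8.89 in MP2-α2/TC, 9.09 in MP2-α2/CI, 8.85 in MP2-α2Δ and 10.78 in MP2-α9α2. As deposited MP2-mock was lowest by 1.34, but after quantile normalization by only 0.54. All 4 DDR2 probe sets were lower in MP2-mock than in both α2 populations, and 2 of them were lower still in MP2-α2Δ. One of these, 205168_at, measured 7.94 in MP2-mock, 9.29 and 9.45 in the α2 populations and 7.45 in MP2-α2Δ.

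PTPN3, a non-receptor tyrosine phosphatase, measured 8.59 in MP2-mock, 9.72 in MP2-α2/TC, 9.81 in MP2-α2/CI, 10.46 in MP2-α2Δ and 10.33 in MP2-α9α2. Its second probe set had MP2-mock lowest by 0.94 (6.88, against 7.82 to 8.86). TNFSF10 measured 4.03 in MP2-mock, 5.33 in MP2-α2/TC, 6.13 in MP2-α2/CI and 5.16 in both MP2-α2Δ and MP2-α9α2, and all 3 of its probe sets were lowest in MP2-mock. Its gap of 1.12 was set by MP2-α2Δ and MP2-α9α2 and became 0.37 after quantile normalization.

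NEDD4L, a ubiquitin ligase that removes sodium channels from the membrane, measured 2.39 in MP2-mock, 3.58 in MP2-α2/TC, 3.47 in MP2-α2/CI, 4.27 in MP2-α2Δ and 6.12 in MP2-α9α2 with the probe set that met the rule. The 3 stronger probe sets read higher in MP2-mock than in MP2-α2Δ. For 212445_s_at the values were 6.64, 8.82, 8.17, 5.29 and 7.93, so that MP2-mock lay below both α2 populations but above MP2-α2Δ. IRAK1BP1, which binds the interleukin-1 receptor kinase IRAK1, read 2.79, 3.87, 3.99, 5.84 and 5.65. Its second probe set measured 3.65 in MP2-mock, 3.74 and 3.82 in the α2 populations, 7.03 in MP2-α2Δ and 7.77 in MP2-α9α2, so that the α2 populations lay close to MP2-mock. CXADR, the coxsackievirus and adenovirus receptor of epithelial junctions, measured 4.18 in MP2-mock, 5.23 in both α2 populations, 9.30 in MP2-α2Δ and 6.50 in MP2-α9α2. Its probe set 203917_at was also lowest in MP2-mock but not by 2-fold (6.63, against 7.23, 7.10, 10.62 and 7.68). The other 2 CXADR probe sets, at 2.25 and 2.41 in MP2-mock, were near background in all but MP2-α2Δ (3.23 and 4.74).

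**Figure D4:**
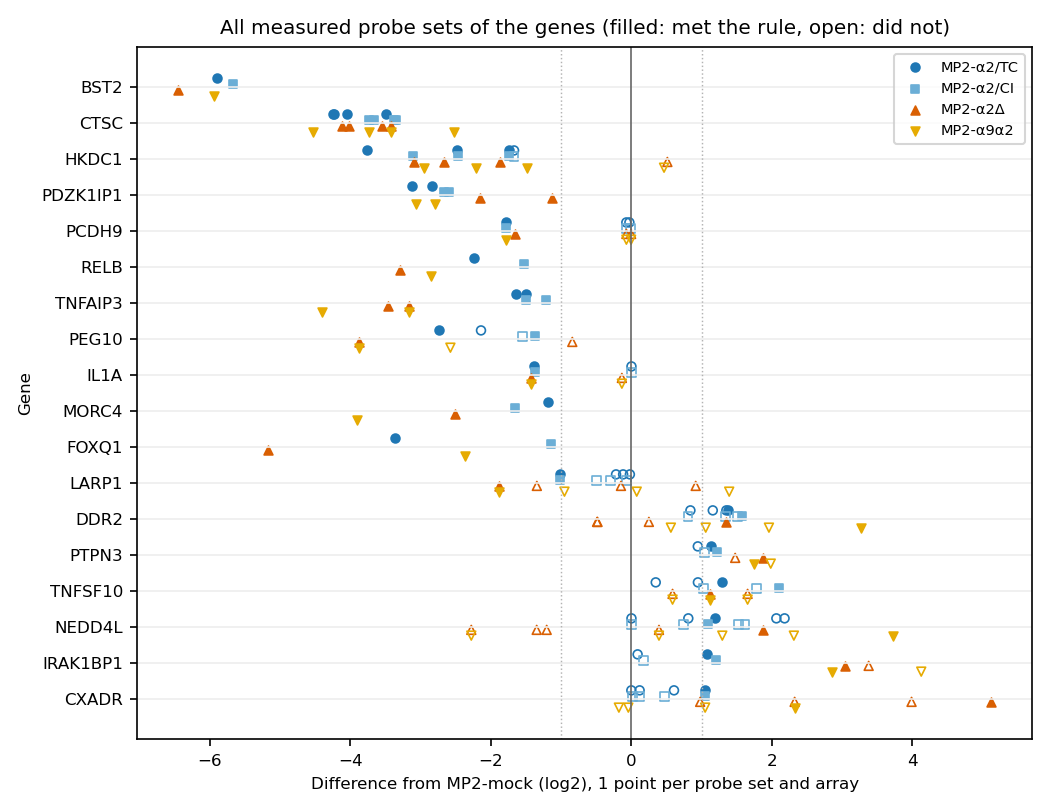
Difference of each construct array from MP2-mock (horizontal axis, log2) for every measured probe set of the 18 genes, with filled points for probe sets that met the rule, open points for those that did not and dotted lines at 2-fold. Of the genes with several probe sets, CTSC, PDZK1IP1 and TNFAIP3 have filled points only, while the open points of HKDC1, LARP1, DDR2, NEDD4L and CXADR reach both sides of 0.

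Over all genes, the 12 higher genes had 8 further measured probe sets, 4 of which were highest in MP2-mock by any amount and 4 of which were not. The 6 lower genes had 14, of which 6 were lowest in MP2-mock and 8 were not. In 7 of the 20 higher probe sets, and in 1 of the 6 lower, the identifier marks probes that can read several transcripts. The 18 genes lie on 14 chromosomes, and no pair of them are neighbouring protein-coding genes.

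The construct populations also differed from each other at these probe sets. For the higher probe sets the median difference from MP2-mock was -2.61 in MP2-α2/TC, -1.76 in MP2-α2/CI, -3.13 in MP2-α2Δ and -2.90 in MP2-α9α2, and for the lower 1.16, 1.21, 1.88 and 2.59. As deposited, MP2-α2/CI was the nearest to MP2-mock in 9 of the 20. These include IL1A, where the floor set the order, and leave out ties with MP2-α2/TC such as 202643_s_at. In 14 of the 20 the value of MP2-α2/CI was above that of MP2-α2/TC and in 1 below, where 23.9% of all measured probe sets were higher in MP2-α2/CI. Of all 26, PEG10 (by 1.37) and FOXQ1 (by 2.22) were 2-fold apart between these populations, against 0.125% of all probe sets. MP2-α2Δ and MP2-α9α2 were 2-fold apart at 4 of the 20 and 3 of the 6, against 11.8% of all. MP2-α2Δ was higher for MORC4 (1.39), for PDZK1IP1 (219630_at, 1.66) and for CXADR (2.80). It was lower for CTSC (201487_at, -1.02), FOXQ1 (-2.81), DDR2 (-1.93) and NEDD4L (-1.85). For 13 of the 20 higher probe sets and 2 of the 6 lower, the gap to MP2-mock was wider than the whole range of the construct populations.

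Some of these probe sets had identical values on different arrays. MP2-α2/TC and MP2-α2/CI agreed within 1e-06 at 5 of the 20 higher probe sets and MP2-α2Δ and MP2-α9α2 at 6. Such pairs, of which TNFAIP3 202643_s_at and PEG10 212092_at are examples, do not count as separate measurements of the gap. Among measured probe sets with a highest value above 5, 25.4% were identical on the arrays of MP2-mock and both α2 populations. The rule itself excludes that match for the probe sets described here. The share of all probe sets identical on each pair was not counted.

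The 20 and 6 probe sets were part of larger sets in which MP2-mock differed from both α2 populations. Against both of these MP2-mock was 2-fold higher at 54 probe sets and lower at 42. Of the 54, 20 were also 2-fold above both MP2-α2Δ and MP2-α9α2, 12 above MP2-α9α2 only, 1 above MP2-α2Δ only and 21 above neither. Of the 42, 6 were also below both, 8 below MP2-α9α2 only, 6 below MP2-α2Δ only and 22 below neither. By the same rule MP2-α2/TC stood above all other populations at 3 probe sets and below at 2, and MP2-α2/CI at 0 and 5. These arrays are of cells from 1 transfection, and the part of this in the counts was not tested. For MP2-α2Δ the counts were 988 above and 201 below as deposited, but 548 and 487 after quantile normalization. For MP2-α9α2 they were 1082 and 890 as deposited, and the excess turned round after quantile normalization, at 777 and 1338.

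At the threshold, the nearest higher probe sets inside it were LARP1 (1.01) and the second of PDZK1IP1 (1.14), and the nearest outside it were an unnamed probe set (0.99), FGFR1 (0.97) and NRIP1 (0.94). Among the lower, CXADR (1.05) and IRAK1BP1 (1.08) lay just inside, and SYTL2 (0.97), the second probe set of TNFSF10 (0.95) and that of PTPN3 (0.94) just outside. After quantile normalization 7 further probe sets had MP2-mock 2-fold above all others. They were the unnamed one, FGFR1, NRIP1, the epithelial transcription factor EHF, the second probe set of PEG10, the calcium-binding protein S100A3 and TNFRSF9, a receptor of the TNF family. S100A3 (6.57 in MP2-mock, 4.76, 4.36, 6.17 and 4.57 elsewhere) and TNFRSF9 (5.24, against 3.75, 3.75, 5.08 and 2.74) were held back as deposited by MP2-α2Δ alone. No further probe set was lower in MP2-mock.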

How the data were processed

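Expression was measured on 5 Affymetrix arrays, 1 per population. The deposited values are normalized, 1 for each probe set, and were taken as log2 because of their range, as no source states the base. GCRMA and MAS5 are the tools in the submitters' processing notes, with no role or version. The array minimum was used to infer which arrays were normalized together.

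From the 54675 probe sets 62 controls were removed. A single gene symbol was annotated for 41091, several symbols for 1801 and none for 11721, and 41037 symbols were brought up to date by gene identifier through RefSeq (GRCh38.p14). As a floor for each array, values were raised to the 95th percentile of its 107 probe sets for odorant receptors (2.21 to 2.27), and probe sets above it on at least 1 array were called measured (32745). Of each array's values, 40.7 to 42.2% lay at its minimum. Precision is limited by the number of arrays, 1 per population, and by signal near the floor.

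The gap is MP2-mock minus the nearest construct array. Genes were named where both the deposited and the quantile-normalized values met the rule, then those that met it on 1 scale, with members of 21 gene lists read by the probe set of highest mean. Values of other list genes and of the genes near the threshold, and the motifs, were chosen after their values were seen. The comparison, its genes and the lists were chosen with earlier results of these data known. Alternatives were other scalings, floors, folds, probe sets and arrays. Per the study, the α2 transgene lacks the 3′ UTR that the probes read, so ITGA2 does not check the labels. For ITGA9 this is not stated. Python 3.11.15, numpy 2.4.6 and pandas 2.3.3 were used, and the counting was checked on simulated data.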

Additional observations from a re-analysis of the deposited data

How the results depend on the processing

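The 20 probe sets higher in MP2-mock numbered 27 after quantile normalization, with all 20 among them, and all 20 also met the rule after centring on the median. The 6 lower numbered 4 and 3. At 1.5-fold the counts were 50 higher and 48 lower, at 3-fold 9 and 0, and with 1 probe set per gene 10 and 1. Without probe sets that can read several transcripts 13 were higher. Against the 2 arrays that share the minimum of MP2-mock, 54 were higher and 42 lower. Leaving out 1 construct array gave 21 to 32 higher and 9 to 20 lower. The higher count was 32 without MP2-α2Δ, and the lower count was 20 without MP2-α2/TC, 14 without MP2-α2Δ and 12 without MP2-α9α2. Without MP2-α2/CI the gap of PEG10 was 2.74 and that of FOXQ1 2.36. Leaving out an array can only keep or add probe sets under this rule. Of 18 gene gaps none was reversed. They fell under 2-fold for DDR2 (0.54) and TNFSF10 (0.37) after quantile normalization, for DDR2 (0.50), TNFSF10 (0.28) and PTPN3 (0.94) after centring, and for IL1A (0), LARP1 (0.19), IRAK1BP1 (0) and NEDD4L (0) with a floor at 4, which lies above at least the lower of the values compared. For the scalings the cause was not tested. No paired analysis was possible because each population has 1 array. Genes near the floor (2.21 to 2.27) have compressed differences.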

Other observations

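At 1.5-fold in place of 2-fold, and on both scales, MP2-mock lay above all construct populations at 29 further probe sets, which read 23 genes. Among them was NFKBIZ, a nuclear IκB protein, whose probe set 223217_s_at measured 7.41 in MP2-mock, 6.22 in MP2-α2/TC, 6.50 in MP2-α2/CI, 4.81 in MP2-α2Δ and 5.35 in MP2-α9α2. IKBKE, a kinase of the IKK family, read 4.96, 4.31, 4.31, 3.90 and 3.90, and CFLAR, the caspase-8 inhibitor cFLIP, read 5.07, 4.45, 4.44, 3.68 and 3.68. The autophagy receptor SQSTM1 (p62) read 9.06 in MP2-mock and 8.01 to 8.39 elsewhere, and the granulocyte growth factor CSF3 read 7.33 and 6.26 to 6.55. WNT4, a secreted Wnt ligand, measured 5.85 in MP2-mock, 4.67 in MP2-α2/TC, 4.98 in MP2-α2/CI and 2.21, the floor, in the other two populations. These genes were chosen after their values were seen, and no test was made.

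In the other direction 24 further probe sets, which read 22 genes, had MP2-mock lowest by 1.5-fold on both scales. They held the ubiquitin ligases WWP1 (4.38 in MP2-mock, 5.22, 5.26, 7.88 and 7.94 elsewhere) and SMURF2 (6.27, against 6.94, 6.91, 9.99 and 10.00), relatives of NEDD4L. They also held the fibrillar collagen COL5A2 (10.66, against 11.36, 11.48, 13.32 and 13.22), the protein S precursor PROS1 (7.39, against 8.12, 8.44, 9.79 and 12.45) and the cytoskeletal genes MYO10, RAPH1 and FNBP1L. In WWP1, SMURF2 and COL5A2 the difference from MP2-mock was larger in MP2-α2Δ and MP2-α9α2, the arrays of the other set, than in the α2 populations.

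ITGA2 was at the floor with both probe sets in every population but MP2-α2Δ, where they read 3.28 and 7.28. Whether this signal is endogenous transcript or transgene was not tested. All 4 ITGA9 probe sets were at the floor on all 5 arrays.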
